A study of Mus musculus with 12 samples.

Results

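Goblet cells are the mucus-secreting cells of the intestinal epithelium, and 10 genes of their mucus programme were followed in the ileum of mouse pups: the transcription factors Atoh1 and Spdef, the mucus components Muc2, Fcgbp and Zg16, the co-secreted factors Tff3, Spink4 and Klk1, the mucin-folding protein Agr2, and the row named Clca1. They were taken by symbol, and all 10 were found among the 35275 genes of the count table. The pups were of the C57BL/6 strain and 14 days old. The stressed groups came from 3 dams that were restrained in a ventilated tube for 2 h on each day of gestation from day 7 to day 19, and the control groups came from 3 dams left undisturbed. Each dam gave 1 male and 1 female pup, so there were 3 stressed males, 3 control males, 3 stressed females and 3 control females. The number after a group's name is that of its dam, and stressed dam 1 and control dam 1 share only the number. The 12 libraries were made from total RNA of whole ileum, with totals between 16423523 and 22975526 counted reads, so fewer goblet cells and less RNA per goblet cell cannot be told apart in any result below.

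Goblet cells arise from crypt progenitors in which the transcription factor Atoh1 sets the secretory fate, and Spdef then drives their maturation. They fill granules with the gel-forming mucin Muc2, which is folded in the endoplasmic reticulum with the help of the disulfide isomerase Agr2. In the small intestine the released mucus is loose and lies beside the antimicrobial proteins of Paneth cells, a neighbouring secretory cell type of the crypt base. The symbol Clca1 needs care. In the deposited table it stands on ENSMUSG00000056025, a chloride channel accessory gene that GENCODE M21 and RefSeq call Clca3a1. The metalloprotease of goblet cell mucus that now bears the name Clca1, also called gob-5, is the row named Clca3 (ENSMUSG00000028255). That row is not 1 of the 10 genes, and its values are given beside them.

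RefSeq promoter windows (build GRCm38.p6) were found for 7 of the 10 genes, Muc2, Fcgbp, Agr2, Spdef, Klk1, Atoh1 and the Clca1 row, and not for Tff3, Spink4 and Zg16. The 250 bases before the start are shown for Muc2 and Fcgbp, both highest in stressed males 3 and 1, and for Agr2, which was not. The 2 did not go together in every library: control male 3 had 2562 CPM (counts scaled to a common library size) of Fcgbp, rank 10 from the lowest, and 287 CPM of Muc2, rank 3. Capitals mark 3 motifs searched on both strands: CAGCTG, an E-box of the kind that Atoh1 can bind, GGATG, a core of the kind that Spdef prefers, and TATAA, the TATA box core. In the 3 windows shown no matches overlapped.
Muc2, chr7:141690090-141690339, + strand: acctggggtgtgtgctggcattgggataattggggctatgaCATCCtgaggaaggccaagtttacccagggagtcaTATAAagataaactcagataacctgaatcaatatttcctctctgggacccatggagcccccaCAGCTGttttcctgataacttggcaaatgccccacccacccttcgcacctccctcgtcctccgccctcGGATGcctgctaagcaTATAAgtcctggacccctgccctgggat
Fcgbp, chr7:28070986-28071235, + strand: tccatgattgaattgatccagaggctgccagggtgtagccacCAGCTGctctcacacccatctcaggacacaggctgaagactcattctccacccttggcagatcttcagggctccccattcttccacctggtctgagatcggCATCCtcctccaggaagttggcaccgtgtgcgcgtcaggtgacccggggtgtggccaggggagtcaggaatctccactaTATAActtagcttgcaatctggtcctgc
Agr2, chr12:35992675-35992924, + strand: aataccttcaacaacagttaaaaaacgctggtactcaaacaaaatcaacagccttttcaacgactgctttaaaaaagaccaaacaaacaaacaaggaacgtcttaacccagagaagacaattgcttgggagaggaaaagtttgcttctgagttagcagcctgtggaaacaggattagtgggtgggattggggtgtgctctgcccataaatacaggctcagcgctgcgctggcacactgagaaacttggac
CAGCTG was present in 2 of the 7 windows, those of Muc2 and Fcgbp, against 13.0% of 32851 mouse windows of the same length. GGATG was present in 3, those of Muc2, Fcgbp and Spdef, against 37.3% of all windows. TATAA was present in the same 3, against 22.8% of all windows, and a match began at -28 from the start in Muc2 and Fcgbp, counted from -1 for the base before the start. In Spdef 2 overlapping matches began at -28 and -27, the first of them the reverse complement. The windows of Agr2, Klk1, Atoh1 and the Clca1 row held none of the 3 motifs. These matches describe letters and do not show that a factor binds.

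The goblet cell programme was well represented in this tissue. On the FPKM scale of the authors, which divides counts by gene length and library total, the median level over the 12 libraries was highest for Tff3, at 1194 FPKM (range 233 to 1908). Spink4 followed at 491 FPKM (98.5 to 731), then Agr2 at 199 FPKM (37.6 to 284), Fcgbp at 194 FPKM (63.9 to 431) and Muc2 at 118 FPKM (67.0 to 213). The ranges of neighbours in this order overlapped. Below them came Klk1 at 22.2 FPKM, Spdef at 7.33 FPKM, Atoh1 at 6.93 FPKM and Zg16 at 3.64 FPKM, and the Clca1 row was lowest at 0.870 FPKM. The Clca3 row, gob-5, had a median of 252 FPKM, so the goblet cell gene of this pair was abundant and the row with its present-day name was scarce. The length given for Muc2 is 2926 bases in the files, which is shorter than the full mucin transcript, so its place in the order rests on that gene model. All 10 genes passed the filter on low counts, which asked for about 0.490 CPM (counts scaled to a common library size). Zg16 reached that level in 10 of 12 libraries, and the other members in all 12.

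Below, levels are CPM after scaling of library sizes (TMM) and compare libraries for 1 gene at a time.

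**Figure D1:**
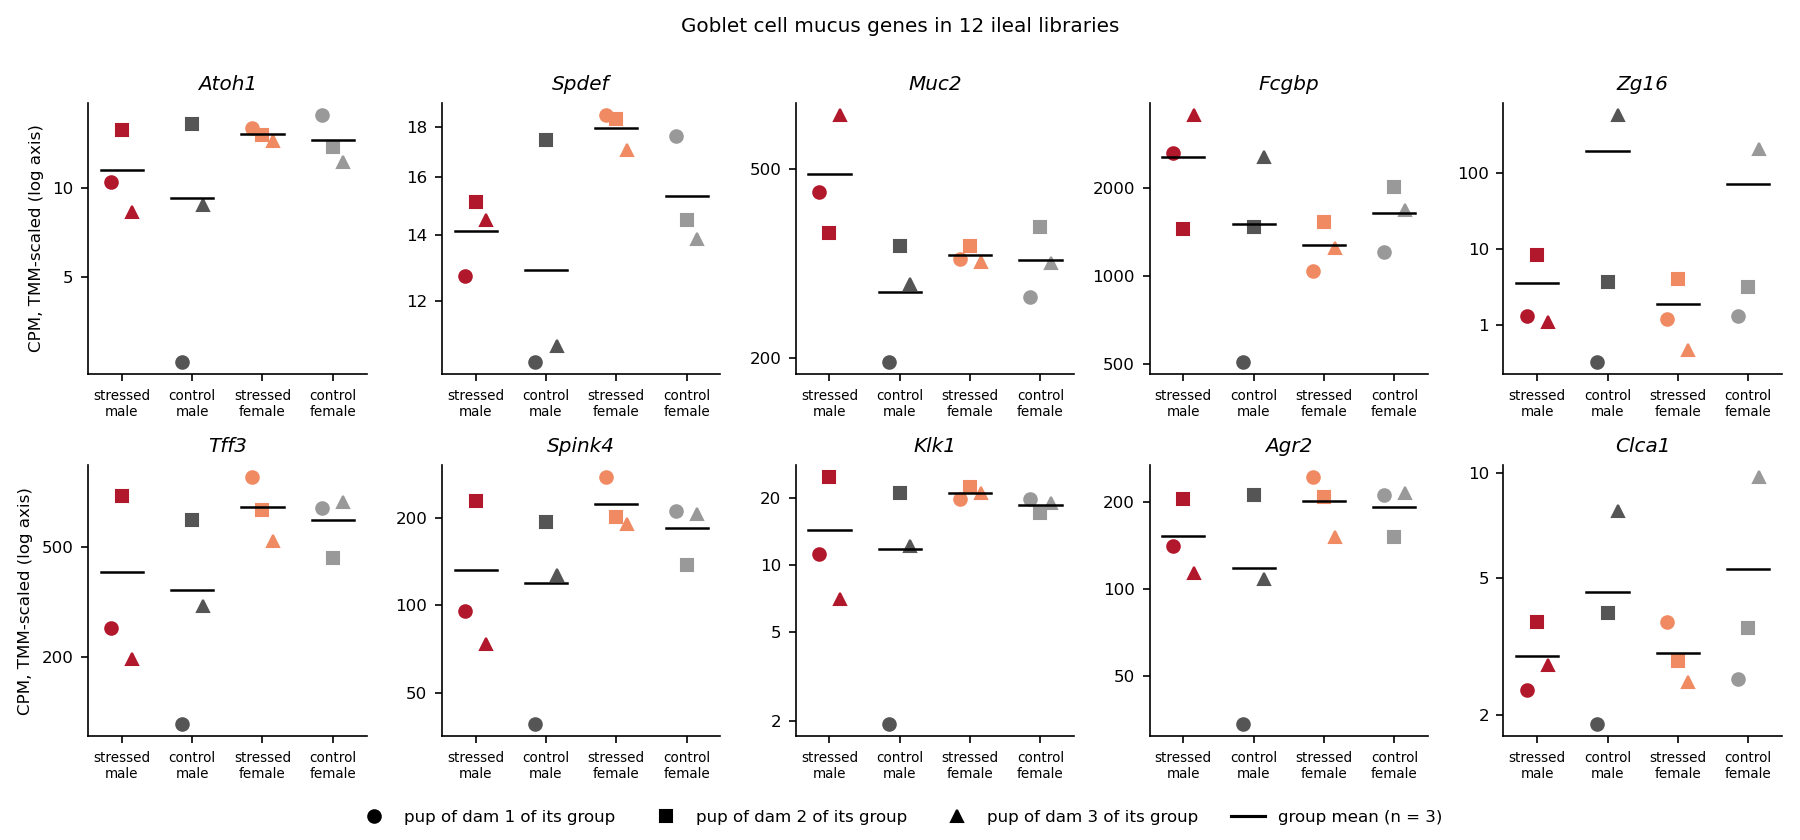
Level of each of the 10 genes in CPM (TMM-scaled, log axis) in every library, by group. Symbols give the dam within its group and bars the mean of 3 libraries. Control male 1 is the lowest point in every panel, and Zg16 is above 100 CPM only in the 2 pups of control dam 3.

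In males, the main comparison, Muc2 was the 1 member whose stressed pups all lay above all control pups, and no member passed the test. Fcgbp had nearly as large a difference but overlapped, Zg16 was far lower in stressed than in control males through a single control library, and Tff3, Spink4, Klk1, Agr2, Atoh1 and Spdef had higher means in stressed males by less than their spread. After adjustment by Benjamini and Hochberg over all 16102 genes (edgeR quasi-likelihood test, threshold 0.05), 0 of the 10 were called, against 0.0% of all genes. DESeq2 and limma-voom also called 0. At an unadjusted p under 0.05, 2 of the 10 passed in edgeR, Muc2 and Zg16, against 6.38% of all genes tested. The log2 fold change was above 0 for 8 of the 10, with a median of 0.25 over the members and 0.01 over all genes. Members with groups apart, stressed above control, numbered 1 of 10, against 2.72% of all genes, and those with stressed below control 0 of 10, against 2.95%.

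Atoh1 (ENSMUSG00000073043, chromosome 6, 64729146 to 64731233, a single exon) and Spdef (ENSMUSG00000024215, chromosome 17, 27714352 to 27728951) are the 2 transcription factors. Atoh1 stood at 10.5, 15.7 and 8.32 CPM in stressed males 1, 2 and 3, against 2.59, 16.5 and 8.78 CPM in control males 1, 2 and 3. In females it stood at 15.97, 15.1 and 14.5 CPM in stressed pups against 17.6, 13.8 and 12.3 CPM in control pups. The female values were close together and the male values were spread, with control male 1 far below the others. Atoh1 had a log2 fold change of 0.31 ± 0.47 (SE) in males and 0.06 ± 0.46 in females. Spdef varied least of the 10, with 12.7, 15.1 and 14.5 CPM in stressed males against 10.4, 17.5 and 10.8 CPM in control males, and a highest value over all 12 libraries 1.78 times the lowest. In females Spdef had 18.5, 18.3 and 17.1 CPM in stressed pups against 17.6, 14.5 and 13.9 CPM in control pups. Groups overlapped in both sexes, and the log2 fold change was 0.13 ± 0.20 in males and 0.23 ± 0.20 in females.

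Muc2 (ENSMUSG00000025515, chromosome 7, 141690340 to 141754693), the mucin that forms the gel, stood at 448, 367 and 649 CPM in stressed males 1, 2 and 3, against 196, 344 and 287 CPM in control males 1, 2 and 3. Stressed males 3 and 1 held the highest values of the series, and stressed male 2 lay close to control male 2. Stressed males averaged 488 ± 145 CPM, control males 276 ± 74.4 CPM (SD, n = 3 each), and the log2 fold change was 0.82 ± 0.24 (SE; edgeR unadjusted p = 0.00546, adjusted p = 0.752). In females Muc2 had 324, 344 and 319 CPM in stressed pups against 269, 378 and 317 CPM in control pups, and the groups overlapped, with a log2 fold change of 0.03 ± 0.24. The difference between the sexes in this change was 0.79 ± 0.34 on the log2 scale (edgeR unadjusted p = 0.0393, adjusted p = 0.999). Leaving out single libraries kept the male value between 0.56 (without stressed male 3) and 0.99 (without control male 2). Without stressed male 1, stressed male 3 and control male 1, a set chosen after the data were seen, it was 0.22. These are the 2 highest stressed males and the lowest control male for Muc2, so a smaller value follows from the choice, and only stressed male 2 was left in its group.

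Fcgbp (ENSMUSG00000047730, chromosome 7, 28071236 to 28120862), a large protein bound to Muc2 in mucus, was the most counted of the 10. It had 2649, 1447 and 3565 CPM in stressed males 1, 2 and 3, against 508, 1475 and 2562 CPM in control males 1, 2 and 3. In females it had 1045, 1538 and 1251 CPM in stressed pups, against 1210, 2028 and 1682 CPM in control pups. The male ranges were wide and overlapped, and the stressed female mean was below the control female mean. The log2 fold change was 0.75 ± 0.48 (SE) in males and -0.36 ± 0.48 in females, and the difference between them was 1.11 ± 0.68 (edgeR unadjusted p = 0.129, adjusted p = 0.999). Its male value was 0.34 without control male 1, 0.44 without stressed male 3 and 1.36 without control male 3. Gob-5, the Clca3 row (chromosome 3, 145004537 to 145032776), had 812, 872 and 643 CPM in stressed males against 114, 794 and 480 CPM in control males, with a log2 fold change of 0.74 ± 0.49, and -0.31 ± 0.48 in females. Without control male 1 its male value was 0.28.

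Tff3 (ENSMUSG00000024029, chromosome 17, 31125306 to 31129646), the trefoil peptide of intestinal mucus that promotes repair of the epithelium, divided the males differently. It had 256, 765 and 198 CPM in stressed males 1, 2 and 3, against 115, 627 and 306 CPM in control males 1, 2 and 3. The number 2 pup of each male group was high and the others were low, so the groups overlapped throughout. In females Tff3 had 892, 680 and 525 CPM in stressed pups, against 691, 457 and 725 CPM in control pups. Its log2 fold change was 0.22 ± 0.58 (SE) in males and 0.16 ± 0.58 in females. Spink4 (ENSMUSG00000028415, chromosome 4, 40920052 to 40931395), a Kazal-type protease inhibitor family gene of goblet cells, followed Tff3 from library to library. It had 96.0, 228 and 73.5 CPM in stressed males against 39.2, 192 and 127 CPM in control males. The ratio of Tff3 to Spink4 CPM stayed between 2.40 and 3.53 in all 12 libraries, although Tff3 itself varied 7.76-fold. Klk1 (ENSMUSG00000063903, chromosome 7, 44225437 to 44229617), a tissue kallikrein protease, had 11.3, 24.8 and 7.05 CPM in stressed males against 1.94, 21.2 and 12.2 CPM in control males, the same order of libraries as Tff3 in each male group. Its close relatives, 14 Klk1b rows, held at most 3 counts together in any library. In females, Spink4 ranged from 190 to 275 CPM in stressed and from 137 to 211 CPM in control pups, and Klk1 from 19.8 to 22.3 CPM in stressed and from 17.2 to 19.9 CPM in control pups.

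Agr2 (ENSMUSG00000020581, chromosome 12, 35992907 to 36004087), needed for making Muc2, ordered the males of each group as Tff3 did. It had 141, 205 and 114 CPM in stressed males against 34.2, 212 and 109 CPM in control males. In females it had 244, 209 and 152 CPM in stressed pups against 212, 152 and 216 CPM in control pups. Groups overlapped in both sexes, and the log2 fold change was 0.38 ± 0.48 (SE) in males and 0.06 ± 0.48 in females. The Clca1 row (chromosome 3, 144729677 to 144760977) had 2.37, 3.73 and 2.80 CPM in stressed males against 1.89, 3.96 and 7.81 CPM in control males. In females it had 3.73, 2.86 and 2.49 CPM in stressed pups against 2.55, 3.59 and 9.74 CPM in control pups. Both control values above 5 CPM came from the pups of control dam 3, which were also the 2 high libraries for Zg16. For this row the log2 fold change was -0.61 ± 0.54 in males, where it became 0.015 without the pups of that dam, and -0.80 ± 0.53 in females, where it became -0.019 without them.

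**Figure D2:**
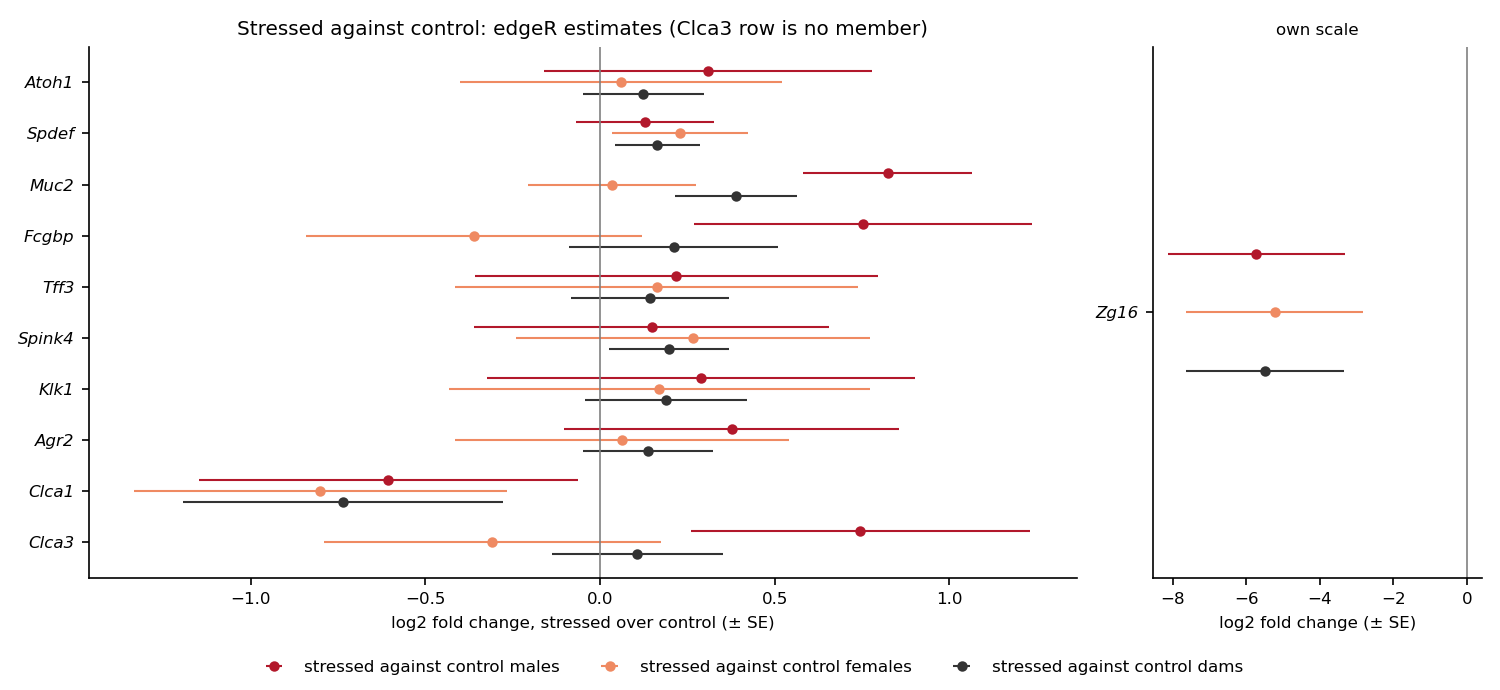
Log2 fold change of stressed over control for the 10 genes and the Clca3 row, by edgeR, with bars of 1 SE. Red is males, orange females and black the fit on littermates summed by dam, and Zg16 has its own axis. Muc2 in males is farthest above 0 of the members, and Zg16 lies below -5 in all 3 comparisons.

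Zg16 (ENSMUSG00000049350, chromosome 7, 127050156 to 127051977), a lectin of colonic mucus that binds Gram-positive bacteria, was scarce in the ileum of 10 pups and abundant in 2. It had 1.31, 8.30 and 1.08 CPM in stressed males 1, 2 and 3, against 0.324, 3.61 and 572 CPM in control males 1, 2 and 3. In females it had 1.17, 3.96 and 0.461 CPM in stressed pups, against 1.32, 3.162 and 206 CPM in control pups. Both high values belonged to the pups of control dam 3, at 68.9 and 24.8 times the highest of the other 10 libraries. The log2 fold change was -5.72 ± 2.41 (SE) in males (edgeR unadjusted p = 0.0358, adjusted p = 0.752) and -5.22 ± 2.40 in females (edgeR unadjusted p = 0.0513, adjusted p = 1). Without the pups of control dam 3 it was 0.85 in males (edgeR unadjusted p = 0.472) and -0.25 in females (edgeR unadjusted p = 0.826). Zg16 is also a gene of exocrine pancreas, where its protein was first found, in rat, on zymogen granules. Added up, 12 exocrine pancreas genes came to 69.6 CPM in the male and 60.8 CPM in the female of control dam 3, where the other 10 libraries had 8.74 to 27.6 CPM, and 7 of the 12, among them Cpa1, Prss2 and Pnlip, were at 0 in every library. For 6 genes of the proximal small intestine the sums were 7872 CPM in that male and 3028 CPM in that female, and 366 to 762 CPM elsewhere. The part of either in the Zg16 difference was not tested.

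Control male 1 stood apart from the other 11 libraries and touches every male value above. It was the lowest of the 12 libraries in 10 of the 10 genes, whereas 17.6% of all genes tested were lowest there. The members took 0.0908% of its counts, against 0.256% to 0.444% of counts in the other 11. The gap to the next library ranged widely over the genes. The next lowest library had 3.63 times its level for Klk1, 3.21 times for Atoh1, 3.18 times for Agr2 and 2.06 times for Fcgbp, but 1.37 times for Muc2 and 1.04 times for Spdef. The log2 fold changes depended on this library: with it 8 of the 10 were above 0 in males, and without it 2 of the 10 were, Muc2 (0.63) and Fcgbp (0.34). Without stressed male 2 they numbered 4 of 10, and without control male 3 10 of 10. None of these fits called a member.

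**Figure D3:**
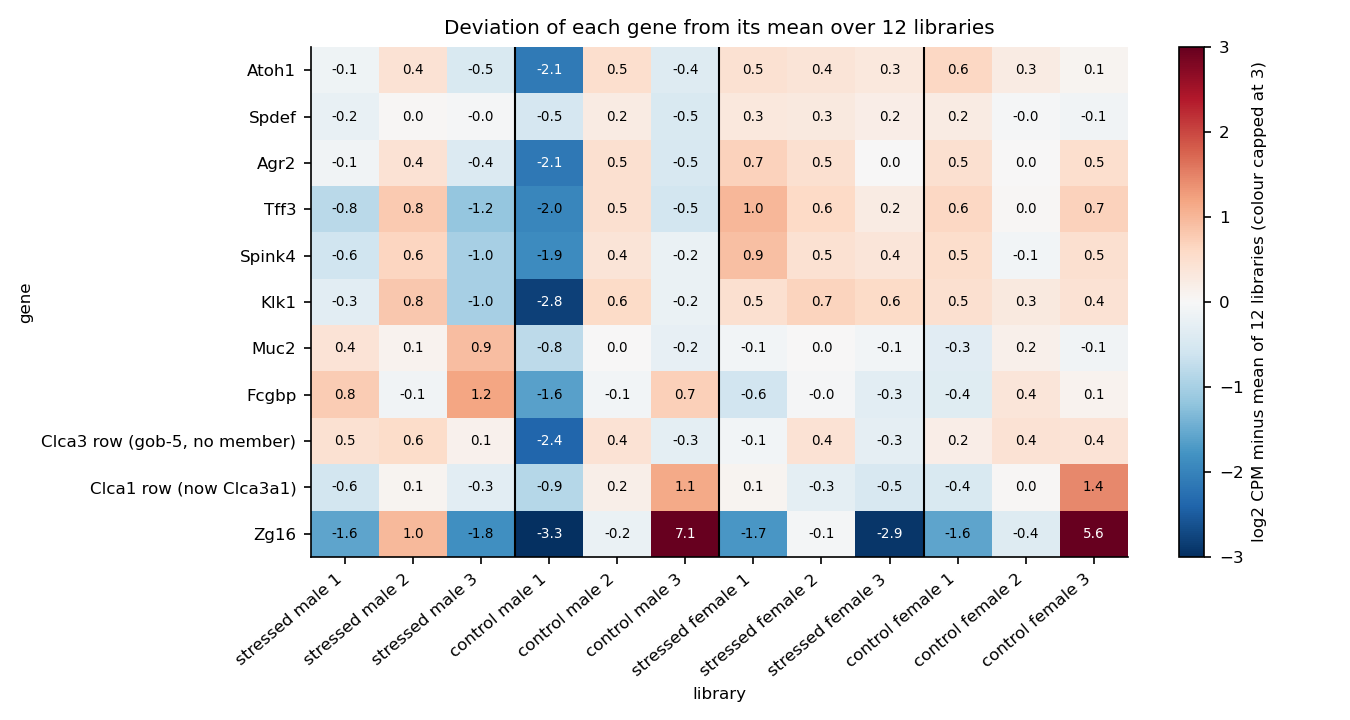
Log2 CPM of each gene minus its mean over the 12 libraries, one column per library, stressed beside control within each sex. Red is above and blue below the mean. Control male 1 is below the mean in every row, and stressed males 1 and 3 are above it in Muc2 and Fcgbp and below it in Tff3, Spink4 and Klk1.

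Other cell type lists moved in control male 1 as well, and these values stand beside its low goblet genes. A list's deviation is the median over its genes of the log2 CPM minus the mean of the 12 libraries. It was -1.93 for the 10 goblet genes in that library and -1.52 for 19 tested genes of other goblet cell products. Paneth cell markers had -2.16, with 10 of 13 genes lowest there and a summed level of 378 CPM against 659 to 5260 CPM in the other 11 libraries, and none of the 13 was at 0 in every library. Cell cycle genes had -0.84, with 11 of 12 genes lowest there, and enteroendocrine markers -0.59. Epithelial markers as a whole had -0.45, with a summed level of 6956 CPM against 7668 to 11610 CPM elsewhere. The opposite was seen for smooth muscle markers, at 0.73 with a summed level of 8313 CPM against 2967 to 5558 CPM, and for enteric neuron markers at 0.71. Goblet, Paneth and cell cycle genes were thus low together in this library, while those of muscle and nerve were high. Regulators of the secretory lineage had -0.12, a small deviation but the lowest of the 12 libraries for that list, with 5 of 20 genes lowest there. Their summed level of 1166 CPM lay within the 1156 to 1311 CPM of the other 11 libraries. Other lists did not share the low values: tuft cell markers had 0.10 and other mucins 0.86. Markers of suckling ileal enterocytes had -0.025, with 0 of 10 genes lowest there and a summed level of 6735 CPM, against 4828 to 10940 CPM elsewhere. The 4 exocrine pancreas markers tested had -1.25, mucin folding and granule release -0.68, and mucin O-glycosylation -0.31. Proximal small intestine markers had -0.89 there, but -1.23 in control female 1. The part of these in the male comparison was not tested.

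**Figure D4:**
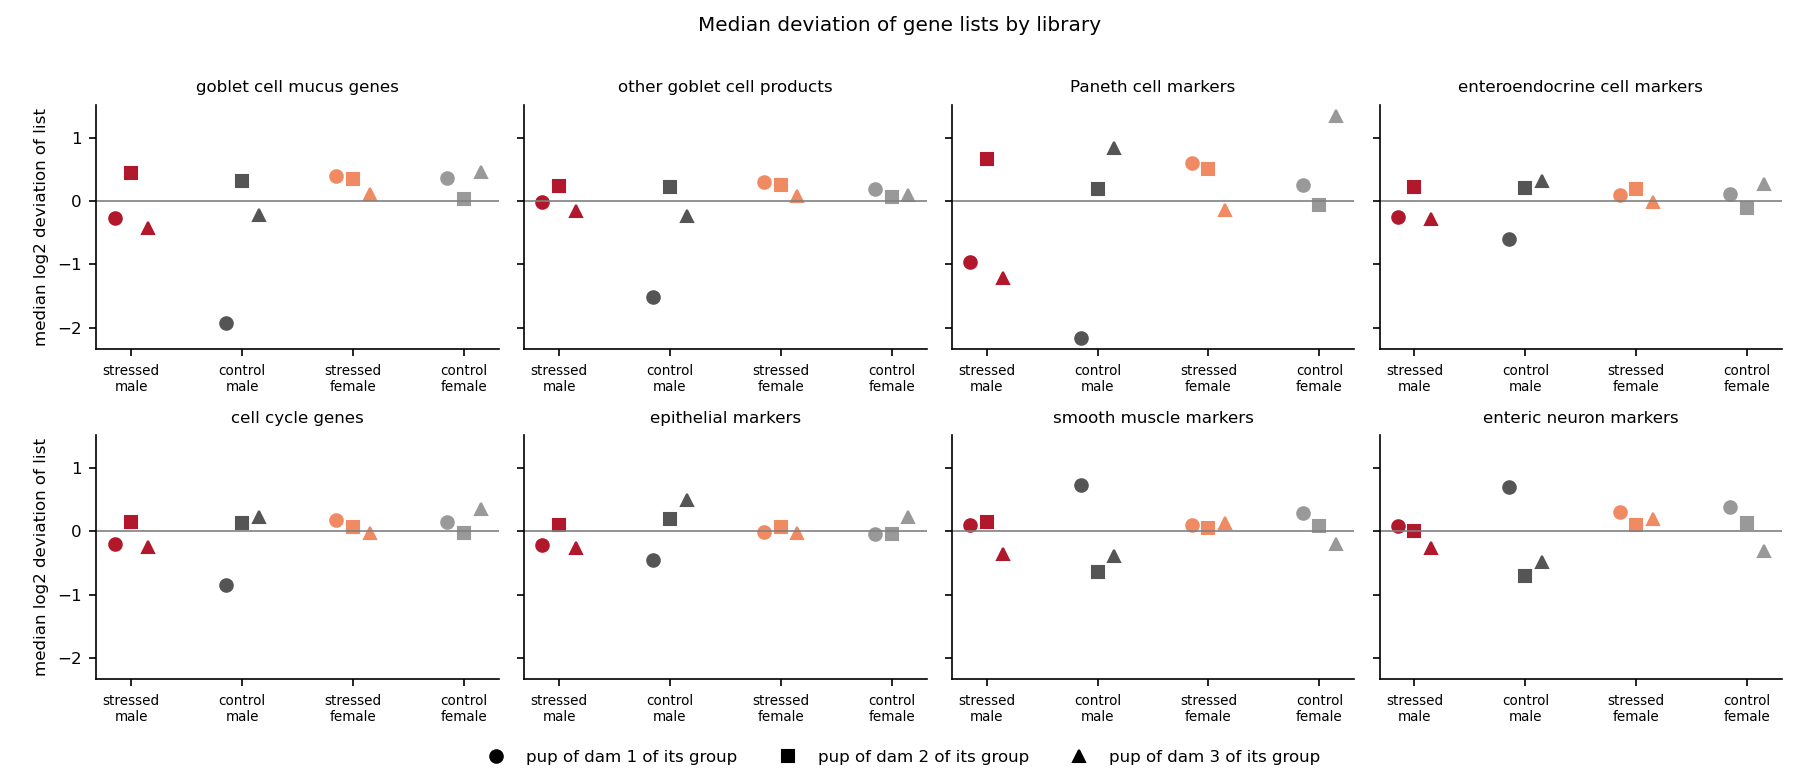
Median log2 deviation of 8 gene lists in each library, by group. Symbols give the dam within its group. Control male 1 is lowest for the goblet, other goblet, Paneth, enteroendocrine, cell cycle and epithelial lists and highest for the smooth muscle and enteric neuron lists.

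The 10 genes did not move as 1 block in the remaining libraries. Muc2 and Fcgbp were high in stressed males 1 and 3, in which Tff3, Spink4 and Klk1 were low, and this split was chosen for description after the values were seen. The ratio of Fcgbp to Tff3 CPM was 10.4, 1.89 and 18.0 in stressed males 1, 2 and 3, against 4.42, 2.35 and 8.39 in control males 1, 2 and 3. In females it was 1.17, 2.26 and 2.38 in stressed pups, against 1.75, 4.44 and 2.32 in control pups. The ratio was thus above 8 in 3 libraries, all of them males, and overlapped between stressed and control pups in both sexes. The trend of a library with gene length differed as well. The gene model of Fcgbp has 7928 bases in the files, against 493 for Tff3 and 397 for Spink4. Over 14520 genes of at least 1 CPM, the slope of the log2 deviation per doubling of gene length reached 0.19 in stressed male 1, and 0.28 in stressed male 3, the 2 highest of the series. In the other 10 libraries it lay between -0.16 and 0.09, with stressed female 1, which had the lowest ratio, at -0.16. The 2 measures did not run in step in every library, since control male 3 had the third highest ratio at a slope of 0.014, and control male 1 a ratio of 4.42 at 0.092. With each library's trend on gene length removed, a correction chosen after the data were seen, the male log2 fold change was 0.39 for Fcgbp and 0.83 for Muc2. The correction used the lengths in the files. That of Muc2, 2926 bases, is shorter than the full mucin transcript, so its corrected value rests on that gene model and does not show independence from length. The part of transcript length in the split was not tested further.

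**Figure D5:**
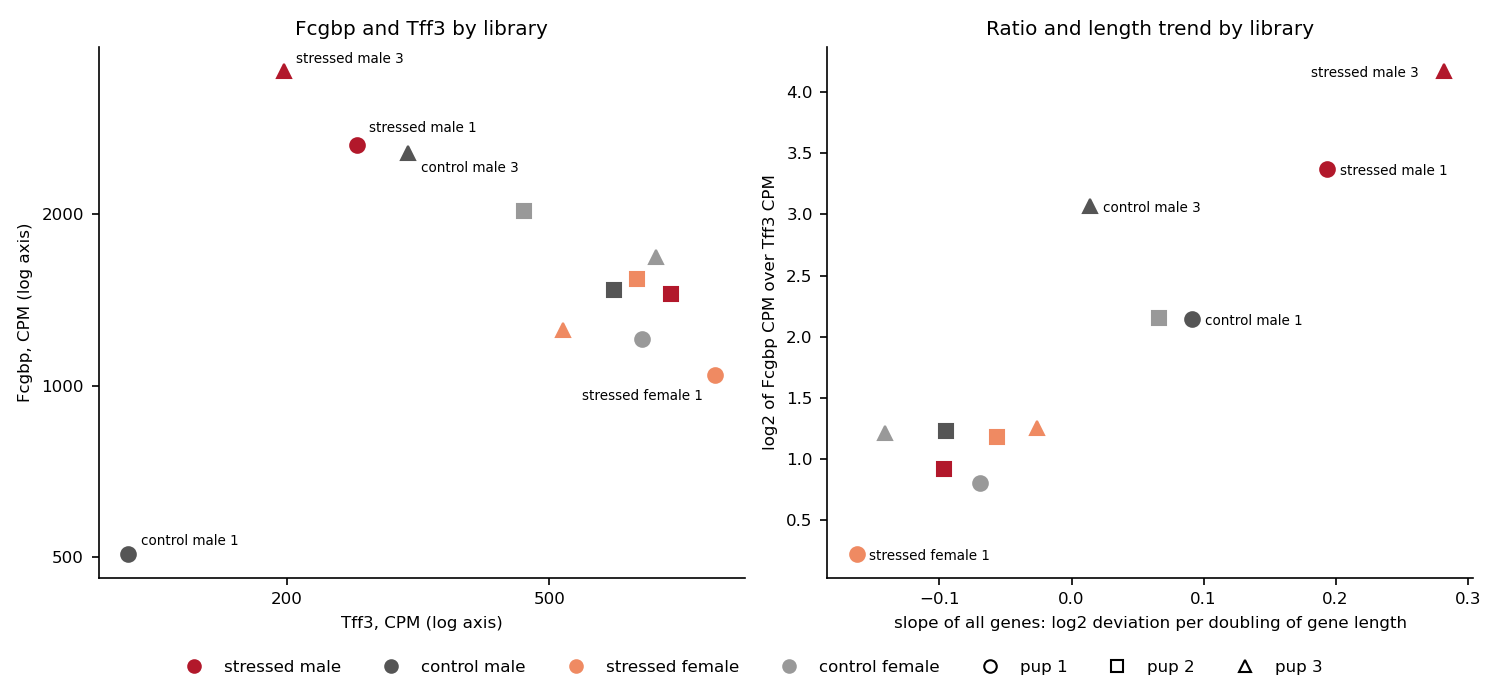
Left, Fcgbp against Tff3 in CPM (both axes log), one point per library. Right, log2 of their ratio against the library's slope of all genes on gene length. Stressed males 1 and 3 have the highest ratios and the highest slopes, and control male 1 is low in both genes.

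In females the 10 genes lay closer together between libraries, and the groups overlapped for every member. In edgeR 0 of the 10 passed the adjusted threshold, against 0.0% of all genes, and 0 of the 10 had an unadjusted p under 0.05, against 0.298% of all genes. DESeq2 and limma-voom also called 0. The log2 fold changes of 7 of the 10 were above 0, with a median of 0.06 against -0.0046 over all genes. Apart from Zg16 they ran from -0.80 for the Clca1 row, a value carried by control female 3 and -0.015 without it, to 0.27 ± 0.51 (SE) for Spink4. No member had groups apart in females, against 3.07% of all genes with stressed pups above and 2.49% with stressed pups below.

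Summing littermates makes the dam, the animal that was stressed, the unit of comparison. Muc2 then had 376, 359 and 456 CPM in the litters of stressed dams 1, 2 and 3, against 239, 367 and 304 CPM in those of control dams 1, 2 and 3. Control dam 2 lay above stressed dam 2, so the groups overlapped, and the log2 fold change was 0.39 ± 0.18 (SE; edgeR unadjusted p = 0.0602, adjusted p = 1). Zg16 had 1.22, 6.08 and 0.719 CPM against 0.893, 3.43 and 359 CPM. Its log2 fold change of -5.49 ± 2.15 was the 1 member estimate with an unadjusted p under 0.05 (edgeR unadjusted p = 0.0365, adjusted p = 1), against 1.36% of all genes, and it was 0.32 without control dam 3. The 8 remaining members had values between -0.74 for the Clca1 row, which was -0.020 without control dam 3, and 0.21 for Fcgbp. After adjustment over 16749 genes 0 of the 10 were called in edgeR, against 0.0% of all genes, and DESeq2 and limma-voom called 0. No member's litters were apart between the groups, against 2.53% of all genes with stressed above and 3.18% with stressed below. For the difference between the sexes in the change with stress, 0 of the 10 were called by any of the 3 tools, against 0.0% of all genes, and at an unadjusted p under 0.05 edgeR passed 1 of 10, Muc2, against 2.15% of all genes.

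Males had lower levels than females of 7 of the 10 genes, over stressed and control pups together, and none passed the test. Tff3 ranged from 115 CPM over a median of 281 to 765 CPM in the 6 males, against 457, 685 and 892 CPM in the 6 females. Spink4 had a lowest, median and highest level of 39.2, 112 and 228 CPM in males, against 137, 203 and 275 CPM in females. The ranges of both genes overlapped because the number 2 male of each group reached the female levels. The log2 fold change of males over females was -0.81 ± 0.41 (SE) for Tff3 (edgeR unadjusted p = 0.0723, adjusted p = 0.418), -0.68 ± 0.36 for Spink4 and -0.30 ± 0.14 for Spdef (unadjusted p = 0.0546, adjusted p = 0.411). It was -0.60 for Klk1, -0.55 for Agr2 and -0.52 for Atoh1. Muc2, at 0.17 ± 0.17, Fcgbp, at 0.44 ± 0.34, and Zg16, at 1.2 ± 1.51, had the other sign. Control male 1, the lowest library for all 10 genes, is among the 6 males. With single libraries left out, the sex value ran from -1.215 to -0.60 for Tff3 and from -0.99 to -0.47 for Spink4. It ran from -0.97 to -0.35 for Klk1, from -0.90 to -0.33 for Agr2, from -0.87 to -0.30 for Atoh1 and from -0.43 to -0.23 for Spdef. Gene models of Tff3, Spink4, Klk1 and Agr2 have 397 to 907 bases, and those of Muc2 and Fcgbp 2926 and 7928. Zg16, with 636 bases, and the Clca1 row, with 3798 bases and a value of -0.13, did not follow this order. The slope on gene length ran from -0.096 to 0.28 over the 6 males and from -0.16 to 0.067 over the 6 females. The part of gene length in these values was not tested further. In edgeR 0 of the 10 were called, against 0.0497% of all genes (8 genes, but 1384 without stressed male 2), and 0 had an unadjusted p under 0.05, against 12% of all genes. DESeq2 and limma-voom called 0 members as well, with 1 and 5 at an unadjusted p under 0.05. No member had the sexes apart, against 0.112% of all genes with males above and 0.143% with males below. With the litter as a block, which pairs each male with its littermate, 0 were called and Tff3 stood at -1.08 (edgeR unadjusted p = 0.0255, adjusted p = 0.459).

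The genes around the mucus programme were read from 5 further lists, and none of their members, nor of the 10 cell type and cell cycle lists, passed the adjusted threshold in any of the 5 comparisons. In stressed against control males, other goblet cell products had 13 of 19 genes above 0 with a median log2 fold change of 0.39, beside 0.01 over all genes. Of the 22 genes of this list 15 were lowest in control male 1, the library named above for its median deviation of -1.52. Their most abundant members were Lypd8, which keeps flagellated bacteria off the colonic epithelium, at 0.13 ± 0.33 (SE), and the guanylate cyclase activators Guca2a at -0.14 ± 0.52 and Guca2b at -0.83 ± 0.55. Tff1 and Retnlb were at 0 in all 12 libraries. Genes of mucin folding and granule release had 10 of 17 above 0 and a median of 0.25, with the chloride cotransporter Slc12a2 at 0.33 ± 0.34, Nlrp6, an inflammasome sensor linked to mucus release, at -0.22 ± 0.43, and the granule fusion protein Vamp8 at -0.52 ± 0.30. Genes of mucin O-glycosylation, which attach the sugars of the mucin, had 8 of 15 above 0 and a median of 0.07, with the sialyltransferase St3gal1 at -0.24 ± 0.14 and the first-step enzymes Galnt6 at -0.10 ± 0.25 and Galnt1 at -0.11 ± 0.19. Regulators of the secretory lineage had 9 of 20 above 0 and a median of -0.03, with the intestinal transcription factor Cdx2 at -0.12 ± 0.14, Klf4, which acts in goblet cell maturation, at -0.08 ± 0.13, and the epithelial factor Elf3 at -0.43 ± 0.28.

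Of 5 other mucins tested in males, 2 had a log2 fold change above 0 and 3 below, with a median of -0.38, and none passed the test. Muc13, a membrane-bound mucin of enterocytes, had 1097, 1459 and 973 CPM in stressed males 1, 2 and 3, against 1393, 1757 and 2106 CPM in control males 1, 2 and 3. Stressed male 2 lay above control male 1, so the groups overlapped, and the log2 fold change was -0.57 ± 0.20 (SE; edgeR unadjusted p = 0.0143, adjusted p = 0.752). Muc3 had -0.81 ± 0.38, Muc4 0.05 ± 0.59 and the scarce Muc1 -0.38 ± 0.74. The other value above 0 was that of Muc6, at 0.97 ± 0.95, with 5.91 CPM in stressed male 3 and at most 2.43 CPM in the other 11 libraries. In females the 5 lists had medians between -0.65 for other mucins and -0.01 for lineage regulators.

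The genes outside the 10 whose log2 CPM was most like the mean standardised log2 CPM of the members were taken from 10087 genes of at least 10 CPM, by Pearson's r over the 12 libraries, as a description with no test. The first was Lypd8 (r = 0.979), followed by Ccl6, a chemokine (0.977), Plk1, a mitotic kinase (0.971), Nup133, a nuclear pore protein (0.971), and Ccl28, a mucosal chemokine (0.969). Gm1123, Hnrnpll, Wdr3, Hells and Mcm7 completed the first 10, with r between 0.960 and 0.969, and the Clca3 row came at rank 74 with r = 0.909. Lypd8 and Ccl6 also belong to the list of other goblet cell products. All 10 had their lowest level in control male 1, as the members had, and with that library left out r was between 0.656 for Hells and 0.900 for Plk1.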

How the data were processed

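Total RNA of ileum from 12 pups was sequenced. The deposited table holds raw counts per gene, and the authors' second table holds FPKM, which equalled count over gene length and library total for all 240813 nonzero counts within 1e-06. Builds named in the submitters' processing notes are mm10 and GRCm38, and the tools are HTSeq 0.6.1, STAR 2.5, TopHat, edgeR 3.16.5 and DESeq2. The settings and annotation release are not given in the sources used here.

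Counts were fitted with the quasi-likelihood test of edgeR 4.0.16 (R 4.3.3) after TMM scaling and filterByExpr. 1 fit of the 4 groups (16102 genes, 8 residual degrees of freedom) gave both stress comparisons, their difference and the comparison of the sexes, and a fit on littermates summed by dam (16749 genes) the comparison of dams. p-values were adjusted over all genes tested. Differences are on the log2 scale, stressed minus control or male minus female. The alternatives tried were DESeq2 1.42.0, limma-voom (limma 3.58.1), median-ratio size factors, other filters, a replicate block, and left-out libraries. By the labels littermates pair. The correlation of their deviations ran from -0.36 to 0.54.

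The 10 genes, the 15 gene lists and the alternatives were chosen with earlier results of these data known. Named were all members, the 3 most abundant genes of each list of the mucus programme, and the 10 genes most like the members. Cpa1, Prss2 and Pnlip, named as at 0, fall outside this rule, as do Tff1, Retnlb, Muc1, Muc6 and the Clca3 row. Tests were tested on simulated data, with the outcome not given here. A lack of calls does not show a lack of change.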

Additional observations from a re-analysis of the deposited data

How the results depend on the processing

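No alternative called a member in any of the 5 comparisons. For single genes 46 values were refitted under up to 30 settings. None crossed the threshold, and the sign changed 45 times. Without both pups of control dam 1, the male log2 fold change was -0.093 for Agr2, -0.17 for Atoh1, -0.25 for Klk1, -0.035 for Spdef, -0.30 for Spink4 and -0.23 for Tff3, the female value was -0.11 for Muc2, and the sex value was 0.015 for the Clca3 row. Without both pups of control dam 3, the male value was 0.015 for the Clca1 row and 0.85 for Zg16, and the female value was -0.053 for Atoh1. Without stressed male 1, stressed male 3 and control male 1, the sex value was 0.22 for the Clca1 row, 0.13 for the Clca3 row and 0.041 for Klk1, and Fcgbp had -0.48 in males and -0.12 in the difference between the sexes. These 3 libraries include the 2 highest and the lowest for Fcgbp and the 3 lowest for Tff3, whose sex value became -0.14, so the direction of such shifts follows from the choice, and the 1 stressed male left was assumed to vary like the other groups. With each library or dam left out in turn, values in males ran from -0.063 to 1.08 for Agr2, from -0.14 to 1.00 for Atoh1, from -0.98 to 0.016 for the Clca1 row, from -0.38 to 1.01 for Klk1, from -0.0059 to 0.39 for Spdef, from -0.52 to 0.64 for Spink4, from -0.65 to 0.92 for Tff3 and from -7.34 to 0.86 for Zg16. In females they ran from -0.11 to 0.24 for Agr2, from -0.049 to 0.19 for Atoh1, from -1.17 to -0.015 for the Clca1 row, from -0.11 to 0.15 for Muc2 and from -0.061 to 0.34 for Tff3. Over dams they ran from -1.08 to -0.020 for the Clca1 row, from -0.10 to 0.31 for the Clca3 row, from -0.066 to 0.45 for Fcgbp, from -0.053 to 0.35 for Klk1, from -0.076 to 0.36 for Tff3 and from -6.95 to 0.32 for Zg16. Between the sexes they ran from -0.44 to 0.27 for the Clca1 row, from -0.50 to 0.044 for the Clca3 row and from -2.09 to 3.69 for Zg16. The cause of these changes was not tested beyond the library left out. The replicate block changed no call: 0 members were called with it in each comparison, and Muc2 in males stood at 0.84 and Fcgbp at 0.92. Between stressed and control pups, which share only a number, deviations correlated from -0.33 to 0.31. Calls over all genes between the sexes numbered 8 and became 1384 without stressed male 2 and 18 with DESeq2. Zg16 counts of 6 to 169 in 10 libraries limit its precision there.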
